A study of Homo sapiens with 6 samples.

Results

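The 9 genes described here encode parts of the machinery that displays peptides on the cell surface. They are the MHC class I heavy chain genes HLA-B, HLA-C and HLA-E, the class I light chain gene B2M, the peptide transporter gene TAP1, the immunoproteasome subunit genes PSMB8 and PSMB9, the class II beta chain gene HLA-DRB1 and the invariant chain gene CD74. They were taken by symbol from a table of 60664 genes, and all 9 matched 1 identifier each. RNA came from cells labelled HCT8, a human colorectal cancer cell line grown in serum-containing medium. In 3 libraries the cells carried a plasmid for overexpression of GPT1 (genotype label GPT1 overexpression), the cytosolic alanine aminotransferase with the gene symbol GPT, and in 3 libraries a control plasmid (genotype label WT). No source used here says whether the transfection was transient or stable, or whether a group was 1 clone. The purpose given for the sequencing was to find signalling under the control of GPT1.

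Class I molecules carry peptides cut from proteins inside the cell. The proteasome makes these peptides, TAP pumps them into the endoplasmic reticulum, and there they are loaded onto a heavy chain paired with B2M. Under interferon-gamma, PSMB8, PSMB9 and PSMB10 take the places of the constitutive catalytic subunits PSMB5, PSMB6 and PSMB7, which gives the immunoproteasome. Class II molecules are made mainly by antigen-presenting leukocytes and present peptides from the endosomes. CD74 encodes the invariant chain that guards their groove, and the transactivator CIITA switches their genes on. Epithelial tumour cells usually carry class I, while class II in them is variable.

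Libraries held 21255655 to 32487217 counts, the shallowest being control replicate 3. GPT stood at 3347 ± 152 CPM (counts scaled by TMM-adjusted library size; SD, n = 3) in the GPT1 libraries, against 0.286 ± 0.153 CPM in the control libraries, as the labels say. Of 13 colorectal epithelial markers, 10 were tested and 9 (90%) fell, beside 25.1% of all tested genes that rose or fell. The summed level was 595 to 651 CPM in the GPT1 libraries, against 944 to 1062 CPM in the control libraries. KRT8 and KRT18 made up most of this sum. CDX2, the tested marker that did not fall, was at 45.3 ± 3.56 CPM in the GPT1 libraries and 41.7 ± 4.47 CPM in the control libraries (0.12 ± 0.11, adjusted p = 0.448, edgeR). KRT20, CDX1 and GPA33, which also belong to that list, had at most 14 counts in any library. Of 9 markers of neural and kidney lines 8 were tested, and NEFM (-1.49 ± 0.10), NEFL (-0.87 ± 0.08) and MAP2 (-1.35 ± 0.18) fell. These 3 are 37.5% of the tested markers of the list, beside 25.1% of all tested genes that rose or fell. TUBB3 (-0.38 ± 0.35), PAX2 (-0.14 ± 0.16), PAX8 (-0.79 ± 0.41), LHX1 (-0.42 ± 0.19) and WT1 (0.26 ± 0.14) did not pass. The list summed to 200 to 205 CPM in the GPT1 libraries and 416 to 521 CPM in the control libraries. NEFM and NEFL made up most of this sum. Of 10 fibroblast markers 5 were tested, and LUM (0.80 ± 0.25) and ACTA2 (0.49 ± 0.10) rose. These 2 are 40% of the tested markers of the list, beside 25.1% of all tested genes that rose or fell. COL1A1 (-0.26 ± 0.12), COL3A1 (-0.20 ± 0.16) and PDGFRB (0.46 ± 0.35) did not pass. The LUM call ended in DESeq2 and without GPT1 replicate 1, GPT1 replicate 3, control replicate 1 or control replicate 2 (adjusted p up to 0.138). The RNA was bulk RNA, so fewer cells with a transcript and less transcript per cell cannot be told apart. No source says that the libraries came from separate cultures, so p-values cover no more than the spread among these libraries, which may be technical.

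Of the 9 members, 5 passed the test across all genes, HLA-DRB1 and TAP1 being higher and PSMB8, PSMB9 and CD74 lower in the GPT1 libraries. The test was edgeR's quasi-likelihood test with Benjamini-Hochberg adjustment over 17638 genes and a threshold of 0.05. For all tested genes the share past the threshold was 25.1%, with 10.5% higher and 14.6% lower. The highest-expressed members, the class I chains, were not among the 5. In 6 of the 9 members the libraries of the groups did not overlap, as in 43.4% of all tested genes. The median log2 fold change of the members was -0.08, beside -0.02 over all tested genes.

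**Figure D1:**
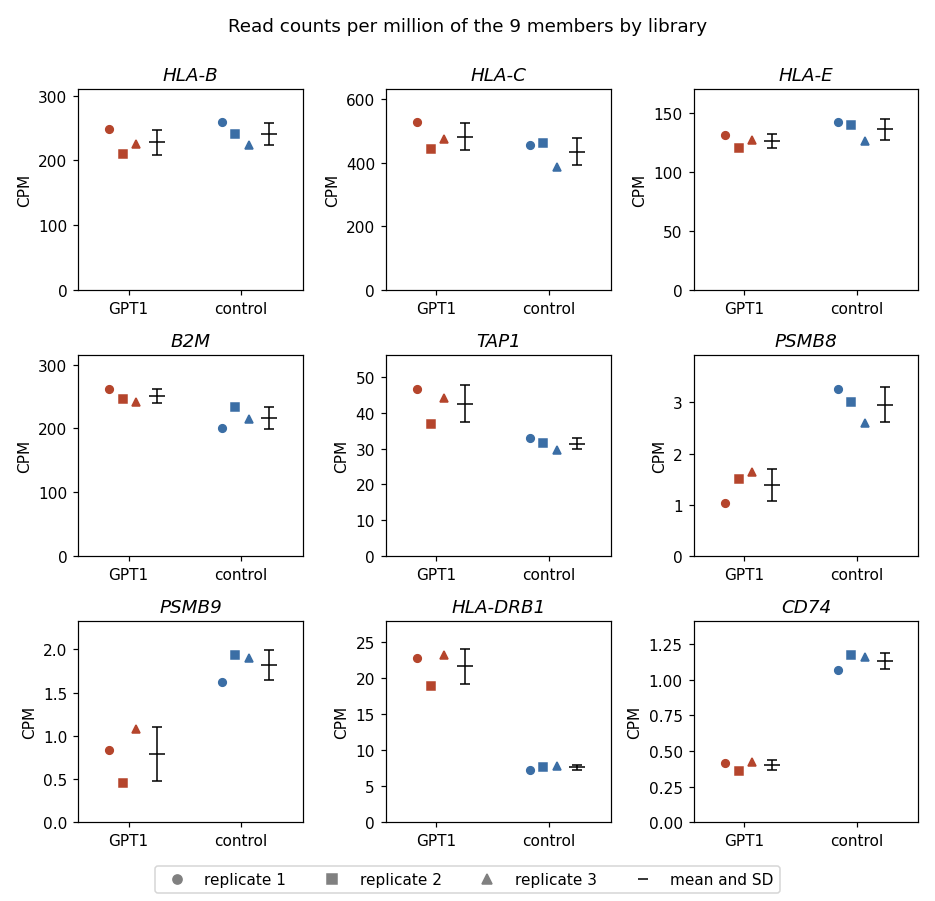
CPM of each member in every library, with GPT1 libraries (red) left of control libraries (blue), replicates as symbols and the mean with its SD in black; every axis starts at 0. HLA-DRB1 and TAP1 lie higher in all 3 GPT1 libraries, PSMB8, PSMB9 and CD74 lie lower, and the class I chains HLA-B, HLA-C and HLA-E overlap.

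Levels were ranked per kilobase of annotated exon. In the GPT1 libraries HLA-C led at 192 ± 16.9 CPM per kilobase, before HLA-B at 74.6 ± 6.18, HLA-E at 42.5 ± 1.99, B2M at 41.2 ± 1.76, HLA-DRB1 at 17.5 ± 1.95 and TAP1 at 8.86 ± 1.08. PSMB8 at 0.464 ± 0.106, PSMB9 at 0.258 ± 0.102 and CD74 at 0.126 ± 0.0111 came last. In the control libraries the order was HLA-C at 173 ± 16.8 CPM per kilobase, HLA-B at 79.1 ± 5.58, HLA-E at 45.7 ± 2.87, B2M at 35.6 ± 2.75, TAP1 at 6.53 ± 0.326 and HLA-DRB1 at 6.18 ± 0.248. PSMB8 at 0.987 ± 0.115, PSMB9 at 0.592 ± 0.0561 and CD74 at 0.356 ± 0.0176 again came last. Per kilobase, the libraries of HLA-E and B2M and those of PSMB8 and PSMB9 overlapped in the GPT1 group, and those of TAP1 and HLA-DRB1 in the control group. The order depends on the length used. Per kilobase of the longest annotated transcript, a length chosen after the data were seen, B2M stood above HLA-E, at 104 ± 4.45 CPM against 48.6 ± 2.28 CPM in the GPT1 libraries and 90.1 ± 6.96 CPM against 52.3 ± 3.29 CPM in the control libraries. On that length TAP1 stood at 10.6 ± 0.53 CPM in the control libraries, above HLA-DRB1 at 6.18 ± 0.248 CPM.

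The class I heavy chain genes among the members were abundant in both groups. HLA-C (ENSG00000204525, GRCh38 chromosome 6, 31268749 to 31272130, minus strand) encodes a heavy chain read by killer-cell receptors as well as T cells. It stood at 527, 443 and 474 CPM in the GPT1 libraries and at 455, 463 and 386 CPM in the control libraries. The groups overlapped, GPT1 replicate 1 being the highest and control replicate 3 the lowest library (log2 fold change 0.15 ± 0.10 SE, adjusted p = 0.284, edgeR). HLA-B (ENSG00000234745, chromosome 6, 31269491 to 31357188, minus strand), the most polymorphic heavy chain gene, had 248, 210 and 225 CPM in the GPT1 libraries, against 259, 241 and 224 CPM in the control libraries. These ranges overlapped too (-0.08 ± 0.09, adjusted p = 0.511, edgeR). HLA-E (ENSG00000204592, chromosome 6, 30489467 to 30494205, plus strand) presents mainly leader peptides of other class I chains to natural killer cells. Its level was 132, 120 and 127 CPM in the GPT1 libraries and 142, 140 and 126 CPM in the control libraries, again with overlap (-0.11 ± 0.08, adjusted p = 0.360, edgeR).

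B2M (ENSG00000166710, chromosome 15, 44711487 to 44718877, plus strand), whose product completes every class I molecule, stood at 262, 246 and 242 CPM in the GPT1 libraries and at 200, 234 and 215 CPM in the control libraries. All 3 GPT1 libraries lay above all 3 control libraries, yet the difference of 0.21 ± 0.08 on the log2 scale did not pass (adjusted p = 0.0878, edgeR). With an offset for transcript length and GC content, HLA-B (-0.22, adjusted p = 0.0134), HLA-E (-0.19, adjusted p = 0.0189) and B2M (0.34, adjusted p = 0.0115) passed in edgeR, so the calls of these 3 genes depend on that choice. Without the offset, log2 fold changes over 17436 genes correlated with transcript length (Spearman -0.331) and GC content (0.31). Every fold change of the main fit carries this trend, whose cause was not tested. Of the 6 class I chain genes looked up, 5 were tested and 0 passed in edgeR, beside 25.1% of all tested genes, with 1 (B2M) at an unadjusted p under 0.05. HLA-B, HLA-C, HLA-E and B2M did not pass in DESeq2 or limma voom either. HLA-F was at 26.4 ± 1.78 CPM in the GPT1 libraries and 30.4 ± 1.77 CPM in the control libraries (-0.21 ± 0.11), and HLA-G, a class I gene of the placenta, had at most 1 count per library.

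Heavy chain and light chain were also set against each other within each library, which needs no scaling between libraries. Per kilobase of annotated exon, HLA-B stood at 181% ± 9.63 of B2M in the GPT1 libraries and at 223% ± 29.1 in the control libraries. The ratio of HLA-E to B2M was 103% ± 4.05 in the GPT1 libraries and 129% ± 13.7 in the control libraries. For HLA-C it was 466% ± 26.8 in the GPT1 libraries and 489% ± 58.0 in the control libraries. The HLA-B and HLA-E ratios were lower in every GPT1 library than in any control library, with differences of -0.30 and -0.32 on the log2 scale, whereas those of HLA-C overlapped (-0.06). An exact two-sided permutation test gave p = 0.1 for HLA-B and HLA-E, the smallest that 3 against 3 libraries allow, and p = 0.7 for HLA-C (adjusted over the 3 ratios, 0.15, 0.15 and 0.7). The ratio levels rest on exon lengths that pool all annotated isoforms, 6079 bases for B2M, but the differences between groups do not.

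**Figure D2:**
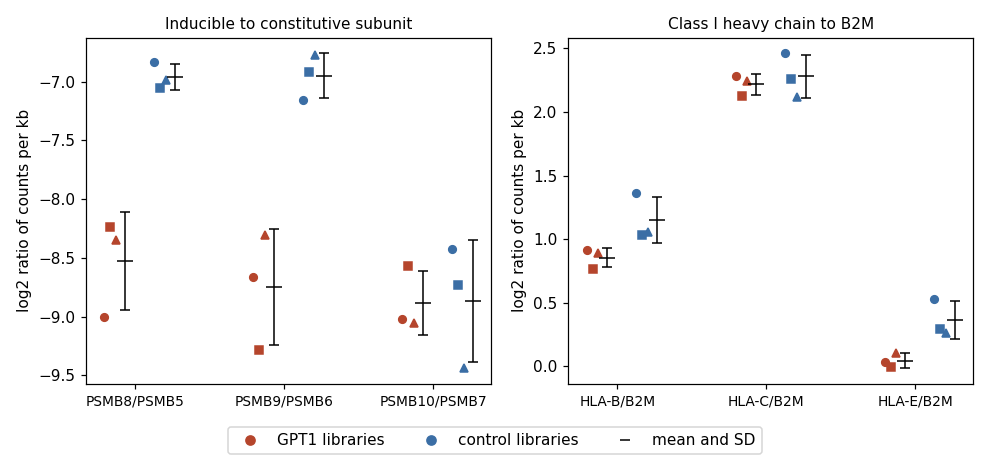
Log2 ratio of counts per kilobase within each library, for inducible over constitutive proteasome subunits (left) and class I heavy chains over B2M (right), with GPT1 libraries in red left of control libraries in blue, replicates as symbols, and mean with SD in black. The PSMB8 to PSMB5 and PSMB9 to PSMB6 ratios lie lower in all 3 GPT1 libraries by 1.57 and 1.80 on the log2 scale, and PSMB10 to PSMB7 overlaps.

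TAP1, a chain of the heterodimeric peptide pump, was the class I pathway member that rose. TAP1 (ENSG00000168394, chromosome 6, 32845209 to 32853978, minus strand) had 46.7, 36.8 and 44.2 CPM in the GPT1 libraries, against 32.9, 31.6 and 29.7 CPM in the control libraries. All GPT1 libraries were above all control libraries, with GPT1 replicate 2 the nearest to them (0.44 ± 0.11, adjusted p = 0.0209, edgeR). Its call ended without GPT1 replicate 1 (adjusted p = 0.0953) or GPT1 replicate 3 (0.0918), the values then being 0.37 and 0.41. The partner chain TAP2 was at 23.3 ± 1.73 CPM in the GPT1 libraries and 22.1 ± 1.51 CPM in the control libraries (0.07 ± 0.11, adjusted p = 0.657, edgeR). Of 12 genes of peptide trimming, transport and loading, all tested, TAP1 was the 1 that passed (8.33%, beside 25.1% of all tested genes). The loading chaperone genes TAPBP (-0.13 ± 0.11), CALR (0.26 ± 0.09) and PDIA3 (0.06 ± 0.08) and the trimming peptidase genes ERAP1 (0.01 ± 0.13) and ERAP2 (-0.33 ± 0.18) did not, and the median of the 12 was -0.03.

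PSMB8 and PSMB9, which lie beside TAP1 in the class II region, fell. PSMB8 (ENSG00000204264, chromosome 6, 32840717 to 32844703, minus strand) encodes the inducible chymotrypsin-like subunit. It had 32, 46 and 50 counts in the GPT1 libraries and 107, 95 and 56 counts in the control libraries, which is 1.03, 1.51 and 1.63 CPM in the GPT1 libraries, against 3.27, 3.02 and 2.59 CPM in the control libraries. Every GPT1 library was below every control library (log2 fold change -1.10 ± 0.21, adjusted p = 0.00664, edgeR). PSMB9 (ENSG00000240065, chromosome 6, 32844136 to 32859585, plus strand) encodes the inducible subunit that replaces PSMB6. It had 26, 14 and 33 counts in the GPT1 libraries and 53, 61 and 41 counts in the control libraries, or 0.837, 0.459 and 1.08 CPM in the GPT1 libraries, against 1.62, 1.94 and 1.90 CPM in the control libraries. GPT1 replicate 2 was the lowest, and the groups did not overlap (-1.19 ± 0.29, adjusted p = 0.0161, edgeR). Both genes were scarce, so that at most 107 reads carry each value.

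The constitutive counterparts went the other way. PSMB5, PSMB6 and PSMB7, all 3 tested, rose by 0.46 ± 0.10, 0.52 ± 0.10 and 0.48 ± 0.09 on the log2 scale (adjusted p = 0.00985, 0.00524 and 0.00625, edgeR), to 297 ± 25.4, 152 ± 14.8 and 237 ± 18.4 CPM in the GPT1 libraries, against 216 ± 21.1, 106 ± 6.86 and 170 ± 14.2 CPM in the control libraries. These 3 are 100% of their list, beside 25.1% of all tested genes that rose or fell and 10.5% that rose. With the length and GC offset the 3 rises were 0.29, 0.32 and 0.30, all still called. The call of PSMB5 ended without GPT1 replicate 3 (adjusted p = 0.0569). Per kilobase, PSMB8 was 0.195%, 0.332% and 0.308% of PSMB5 in the GPT1 libraries and 0.876%, 0.754% and 0.787% in the control libraries. PSMB9 was 0.247%, 0.160% and 0.316% of PSMB6 in the GPT1 libraries and 0.702%, 0.824% and 0.912% in the control libraries. Both inducible genes thus stayed under 1% of their counterparts in all 6 libraries, and lowest in the GPT1 libraries. The log2 ratios differed by -1.57 and -1.80, each with p = 0.1 in an exact two-sided permutation test (0.15 adjusted over the 3 pairs; 0.1 is the smallest possible). PSMB10, the third inducible subunit gene, had 15, 18 and 15 counts in the GPT1 libraries and 17, 14 and 5 counts in the control libraries, and its ratio to PSMB7 overlapped between groups (difference -0.02, exact permutation p = 1).

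Other genes of proteasome assembly and activation rose. POMP, the assembly chaperone that helps form both kinds of proteasome, stood at 65.9 ± 4.93 CPM in the GPT1 libraries and 38.3 ± 1.86 CPM in the control libraries (0.79 ± 0.10, adjusted p = 0.000585, edgeR). PSME2, a subunit of the interferon-inducible PA28 activator cap, rose by 0.40 ± 0.11 (adjusted p = 0.0227) and PSME3, a nuclear activator, by 0.32 ± 0.10 (adjusted p = 0.0423), while PSME1 (0.23 ± 0.11) did not pass in edgeR. The PSME2 call ended without GPT1 replicate 1, GPT1 replicate 3 or control replicate 1 (adjusted p up to 0.114), and that of PSME3 also without control replicate 3 (up to 0.166). In the list of 7 genes of inducible subunits, activators and assembly, 3 (POMP, PSME2 and PSME3) were higher and 2, PSMB8 and PSMB9, lower. These 5 are 71.4% of the list, beside 25.1% of all tested genes.

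HLA-DRB1 had the largest rise among the members. HLA-DRB1 (ENSG00000196126, chromosome 6, 32578769 to 32589848, minus strand) had 705, 574 and 709 counts in the GPT1 libraries and 237, 243 and 169 counts in the control libraries. As CPM this was 22.7, 18.8 and 23.2 in the GPT1 libraries, against 7.24, 7.72 and 7.82 in the control libraries, so that the lowest GPT1 library lay above the highest control library by more than the whole range of the controls. The log2 fold change was 1.51 ± 0.13 (adjusted p = 5.75e-05, edgeR), a 2.84-fold higher level. HLA-DRB5, a close paralog carried by only some MHC haplotypes, had 259, 230 and 283 counts in the GPT1 libraries and 41, 37 and 33 counts in the control libraries (2.68 ± 0.17, adjusted p = 9.32e-06, edgeR). Of the 50-base stretches of HLA-DRB1 transcripts, 8.6% also occur in HLA-DRB5 transcripts, and the alleles of the line may be nearer to either reference gene. Reads of both can therefore be shared, and their sum was 31.0, 26.4 and 32.4 CPM in the GPT1 libraries, against 8.498, 8.891 and 9.342 CPM in the control libraries. HLA-DRB5 took 26.9%, 28.6% and 28.5% of the summed counts in the GPT1 libraries and 14.8%, 13.2% and 16.3% in the control libraries.

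CD74 moved in the opposite direction to HLA-DRB1 and was near the limit of detection. CD74 (ENSG00000019582, chromosome 5, 150401637 to 150412929, minus strand) had 13, 11 and 13 counts in the GPT1 libraries and 35, 37 and 25 counts in the control libraries. This was 0.418, 0.361 and 0.425 CPM in the GPT1 libraries, against 1.07, 1.17 and 1.16 CPM in the control libraries, with no overlap (-1.49 ± 0.28, adjusted p = 0.00547, edgeR). HLA-DRA, the alpha chain that pairs with HLA-DRB1, had 16, 16 and 18 counts in the GPT1 libraries and 16, 27 and 8 counts in the control libraries (-0.11 ± 0.36, adjusted p = 0.843, edgeR; 0.31 without control replicate 2). Per kilobase of exon, HLA-DRB1 stood at 17.5 ± 1.95 CPM in the GPT1 libraries and 6.18 ± 0.25 CPM in the control libraries, HLA-DRA at 0.424 ± 0.031 CPM in the GPT1 libraries and 0.447 ± 0.198 CPM in the control libraries, and CD74 at 0.126 ± 0.011 CPM in the GPT1 libraries and 0.356 ± 0.018 CPM in the control libraries. In both groups the beta chain level was thus above those of its alpha chain and of the invariant chain. CIITA had 5, 5 and 2 counts in the GPT1 libraries and 4, 4 and 5 counts in the control libraries, too few to be tested.

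**Figure D3:**
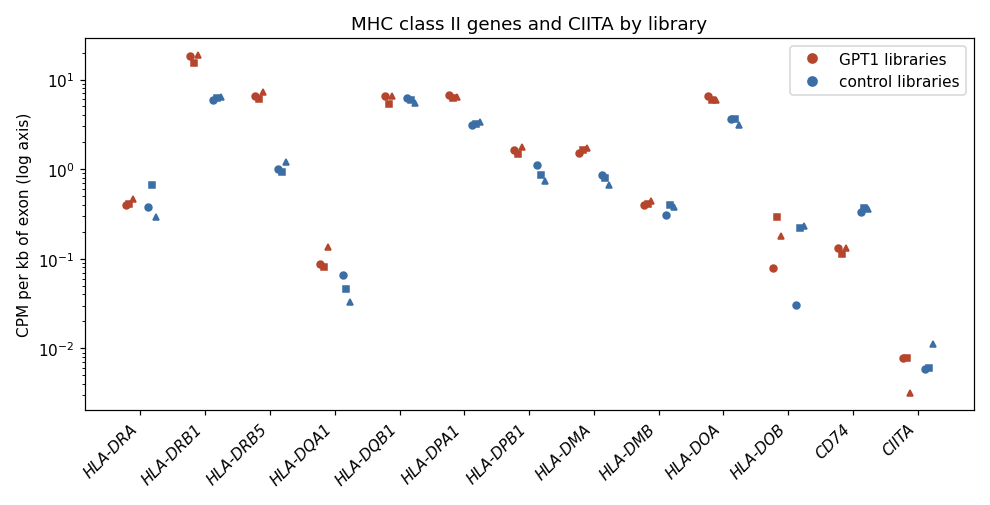
CPM per kilobase of annotated exon (log axis) of class II genes, CD74 and CIITA in each library, GPT1 libraries in red left of control libraries in blue, replicates as symbols; HLA-DQA2, at 0 in every library, is not drawn. HLA-DRB1 is the highest gene in the GPT1 libraries and lies level with HLA-DQB1 in the control libraries, and HLA-DRA, CD74 and CIITA lie far under both.

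Other class II genes rose along with HLA-DRB1. HLA-DPA1, an alpha chain gene, stood at 36.8 ± 1.54 CPM in the GPT1 libraries and 18.5 ± 0.574 CPM in the control libraries (1.99-fold, adjusted p = 0.000194, edgeR). Its beta chain gene HLA-DPB1 (0.84 ± 0.18), HLA-DMA (1.06 ± 0.17), a subunit of the DM molecule that exchanges peptides on class II, and HLA-DOA (0.80 ± 0.12), a subunit of DO, which restrains DM, rose as well (adjusted p = 0.0101, 0.00229 and 0.00171, edgeR). Their partner genes HLA-DMB (0.21 ± 0.19) and HLA-DOB (0.26 ± 0.64) did not pass, nor did HLA-DQA1 (1.02 ± 0.38) and HLA-DQB1 (0.08 ± 0.12). HLA-DQB1 had 806 to 999 counts in the GPT1 libraries and 583 to 985 in the control libraries, while HLA-DQA1 had 17 to 29 in the GPT1 libraries and 5 to 15 in the control libraries. Of the 13 class II chain and invariant chain genes 12 were tested, 6 rose, CD74 fell and 5 did not pass. The 7 that passed are 58.3% of the tested genes of the list, beside 25.1% of all tested genes. The median of the list was 0.82, beside -0.02 over all tested genes. Among genes of endosomal processing, CTSL (0.37 ± 0.08) and CTSD (0.44 ± 0.12), which encode cathepsins, rose, and 6 of the 8 tested did not pass. The share that passed was 25%, beside 25.1% of all tested genes. CTSL did not pass without GPT1 replicate 1 or 3, nor CTSD without these or control replicate 1 (edgeR adjusted p up to 0.0722 and 0.0982). CTSS, the cathepsin that cuts the invariant chain in leukocytes, had 8 to 17 counts in the GPT1 libraries and 8 to 14 in the control libraries.

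**Figure D4:**
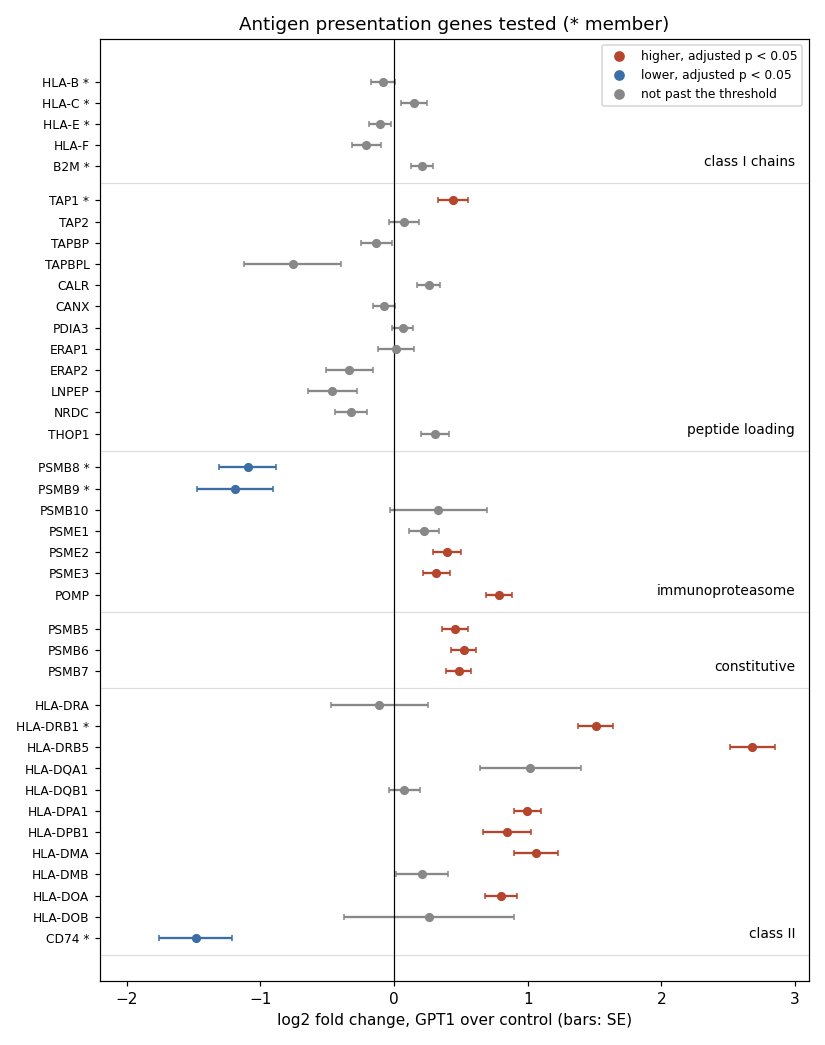
Log2 fold change of GPT1 over control libraries with its SE for the tested genes of 5 presentation lists, members marked with a star; red points are higher and blue points lower past an adjusted p of 0.05, grey points did not pass. The class I chains lie within 0.21 of 0, the 3 constitutive subunits between 0.46 and 0.52, and HLA-DRB5 at 2.68, the highest.

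Markers of leukocytes were set beside the class II values. In a list of 15 markers of antigen-presenting leukocytes, PTPRC (CD45) had 0 counts in every GPT1 library and 0, 1 and 1 counts in the control libraries, and CD1C and CLEC9A had 0 counts in all 6. Of the 3 tested, ITGAX (CD11c) fell, with 33, 38 and 35 counts in the GPT1 libraries and 78, 50 and 64 counts in the control libraries (-0.98 ± 0.25, adjusted p = 0.0197, edgeR; up to 0.0718 without GPT1 replicate 1, GPT1 replicate 3 or control replicate 1). That is 33.3% of the tested genes of the list, beside 25.1% of all tested genes. The list summed to 17.4 to 18.7 CPM in the GPT1 libraries and 16.25 to 19.995 CPM in the control libraries, and CD83, at 15.2 ± 0.657 CPM in the GPT1 libraries and 14.98 ± 1.30 CPM in the control libraries, made up most of it. Of 11 lymphocyte markers, MS4A1, CD3E, CD2 and NKG7 had 0 counts in every library, and the list summed to 11.3 to 11.9 CPM in the GPT1 libraries and 7.81 to 10.8 CPM in the control libraries. Of the 3 tested genes of that list GZMB rose (2.54 ± 0.46, adjusted p = 0.00473, edgeR), which is 33.3%, beside 25.1% of all tested genes. GZMB had 23, 17 and 37 counts in the GPT1 libraries and 4 in each control library. HLA-DRB1 thus rose in libraries in which the defining leukocyte markers were at or near 0. The part of the lower epithelial and neural markers or of the higher LUM and ACTA2 in any of these results was not tested.

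Among regulators of these genes, 3 of 14 tested (21.4%) passed, beside 25.1% of all tested genes. NLRC5, the transactivator of class I genes, stood at 5.40 ± 0.81 CPM in the GPT1 libraries and 5.07 ± 0.28 CPM in the control libraries (0.09 ± 0.15, and -0.03 without GPT1 replicate 3). IRF1, an interferon-induced activator of TAP1 and PSMB9, was at 11.7 ± 0.999 CPM in the GPT1 libraries and 10.98 ± 1.21 CPM in the control libraries (0.09 ± 0.13). Of 15 genes of MHC transcription 14 were tested, of which IRF2 (-0.66 ± 0.14, adjusted p = 0.00845, edgeR) and CREB1 (-0.55 ± 0.17) fell, and NFKB1 (0.37 ± 0.10) rose. With the length and GC offset CREB1 was at -0.056 (adjusted p = 0.578, edgeR), which ended its call. CREB1 also did not pass without GPT1 replicate 1, GPT1 replicate 3, control replicate 1 or control replicate 3 (edgeR adjusted p up to 0.151), nor NFKB1 without GPT1 replicate 1 or 3 (up to 0.0999). The class II enhanceosome genes RFX5 (-0.02 ± 0.08), RFXAP (0.20 ± 0.11) and RFXANK (0.15 ± 0.11) did not pass.

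Of 14 genes of interferon signalling, all tested, SOCS3 (-0.78 ± 0.15), a feedback inhibitor, PIAS1 (-0.72 ± 0.15), an inhibitor of cytokine signalling, and IFNGR1 (-0.44 ± 0.13), a chain of the interferon-gamma receptor, fell, and the other 11 did not pass (edgeR). These 3 are 21.4% of the list, beside 25.1% of all tested genes. With the length and GC offset PIAS1 was at -0.35 and IFNGR1 at -0.28, both still called. IFNGR1 did not pass without GPT1 replicate 1, GPT1 replicate 3 or control replicate 3 (adjusted p up to 0.117). Of 25 interferon-gamma induced genes 16 were tested. IFI35 (1.14 ± 0.15, adjusted p = 0.0009) and SP110 (0.60 ± 0.19) rose, and ICAM1 (-1.74 ± 0.19), IRF8 (-0.46 ± 0.12) and GBP3 (-1.53 ± 0.40) fell in edgeR, together 31.2% of the tested genes of the list, beside 25.1% of all tested genes. DESeq2 ended the calls of SP110 (adjusted p = 0.0958) and GBP3 (0.0636). Leaving out single libraries ended the calls of SP110, IRF8 and GBP3 (adjusted p up to 0.142, 0.0880 and 0.0944), each without GPT1 replicate 1, GPT1 replicate 3 or control replicate 1, and that of SP110 also without GPT1 replicate 2 or control replicate 3. CXCL9, CXCL10 and CXCL11, the chemokines of an interferon-gamma response, had at most 3 counts in any library, and IDO1 had 0. Every library thus lay at or near the floor for these genes.

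Promoters of the members were searched for short motifs bound by known regulators of these genes. RefSeq windows (GRCh38.p14, 250 bases before to 50 after the start) were found for 8 of the 9 members, and HLA-E had none. Capitals mark 3 searched motifs on either strand, the Y box CTGATTGG bound by NF-Y, the interferon-stimulated response element core (TTTC, any pair of bases, TTTC) and the gamma-activated sequence core TTCNNNGAA. Among 35116 windows in the table these letters occurred in 3.97%, 3.57% and 7.66%. HLA-DRB1 and CD74 are shown first, because the class II chain rose while its chaperone fell. The HLA-DRB1 window (chr6:32589799-32590098, minus strand) holds the Y box at -49 bases from the start, and the CD74 window (chr5:150412861-150413160, minus strand) holds none of the motifs in full. The Y box was searched by its exact letters only. The CD74 window holds ccaatggg, which shares ccaat with CCAATCAG, the Y box on the other strand, and such shorter matches were not counted in any window.
HLA-DRB1: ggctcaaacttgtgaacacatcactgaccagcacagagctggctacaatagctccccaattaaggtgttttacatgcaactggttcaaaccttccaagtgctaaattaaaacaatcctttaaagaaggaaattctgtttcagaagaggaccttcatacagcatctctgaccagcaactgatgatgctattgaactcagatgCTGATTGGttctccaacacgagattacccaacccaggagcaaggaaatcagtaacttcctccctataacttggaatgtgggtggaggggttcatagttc
CD74: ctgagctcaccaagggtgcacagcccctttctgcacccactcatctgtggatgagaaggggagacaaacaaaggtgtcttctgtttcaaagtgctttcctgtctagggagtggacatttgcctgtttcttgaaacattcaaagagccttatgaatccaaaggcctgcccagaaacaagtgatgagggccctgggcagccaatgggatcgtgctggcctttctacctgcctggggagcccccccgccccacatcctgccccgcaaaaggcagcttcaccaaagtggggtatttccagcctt

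TAP1 and PSMB9 are transcribed away from each other, from starts 488 bases apart, and their windows share 13 bases; TAP1 rose and PSMB9 fell. TAP1 and PSMB8 have 2 windows each. The TAP1 window shown (chr6:32853655-32853954, minus strand) holds 2 overlapping response element cores at -134 and -128 bases from the start, its other window a gamma-activated sequence core at -189 from its own start, and the PSMB9 window (chr6:32853942-32854241, plus strand) holds none of the motifs. The PSMB8 window shown (chr6:32843998-32844297, minus strand) holds a gamma-activated sequence core at -65 bases from the start and a response element core at -4. The latter runs over the start, and the other PSMB8 window holds none of the motifs.
TAP1: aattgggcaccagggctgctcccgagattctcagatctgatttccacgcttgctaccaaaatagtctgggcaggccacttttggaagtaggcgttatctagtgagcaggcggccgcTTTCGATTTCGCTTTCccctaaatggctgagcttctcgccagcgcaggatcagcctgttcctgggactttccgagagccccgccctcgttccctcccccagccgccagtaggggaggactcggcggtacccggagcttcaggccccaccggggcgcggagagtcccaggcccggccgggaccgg
PSMB9: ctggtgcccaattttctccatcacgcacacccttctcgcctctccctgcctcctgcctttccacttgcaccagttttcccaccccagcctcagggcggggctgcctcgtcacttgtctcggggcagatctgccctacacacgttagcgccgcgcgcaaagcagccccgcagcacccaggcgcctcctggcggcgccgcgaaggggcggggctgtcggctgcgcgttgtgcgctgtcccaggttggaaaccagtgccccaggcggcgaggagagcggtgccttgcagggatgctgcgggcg
PSMB8: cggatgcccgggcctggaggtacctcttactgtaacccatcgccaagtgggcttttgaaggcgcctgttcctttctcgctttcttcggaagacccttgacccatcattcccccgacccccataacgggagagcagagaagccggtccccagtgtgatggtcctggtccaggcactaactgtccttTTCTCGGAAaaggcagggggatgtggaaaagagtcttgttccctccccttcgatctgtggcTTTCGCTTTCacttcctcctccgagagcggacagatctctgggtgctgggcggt

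B2M (chr15:44711267-44711566, plus strand) is shown as the member with both a Y box, at -52 bases from the start, and 2 overlapping response element cores. HLA-B and HLA-C each hold the Y box on the other strand, at -56 bases from the start. A match describes these letters in this window only. The response element core lay in a window of TAP1, which rose, of PSMB8, which fell, and of B2M, which did not pass.
B2M: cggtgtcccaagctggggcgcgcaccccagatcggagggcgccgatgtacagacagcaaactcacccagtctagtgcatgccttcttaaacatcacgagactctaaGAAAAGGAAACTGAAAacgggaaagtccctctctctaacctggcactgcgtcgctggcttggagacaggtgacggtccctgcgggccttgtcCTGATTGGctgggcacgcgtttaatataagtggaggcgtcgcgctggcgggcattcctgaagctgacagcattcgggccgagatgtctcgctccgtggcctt

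In the MHC region itself, from HLA-F to HLA-DPB1 (chromosome 6, 29722775 to 33087201), 113 genes were tested. Of these 17.7% rose and 9.73% fell, beside 10.5% and 14.6% of all tested genes, and their median log2 fold change was 0.08. The 7 members on chromosome 6 lie in it and went in both directions. Neighbours share bases. PSMB8 shares 20.6% of its exon bases with other genes, all of them in the opposite-strand PSMB8-AS1, and whether reads were assigned by strand is not known from the sources used here. TAP1 shares 9.5% with the same gene, PSMB9 shares 5.7% with it on the same strand and 4.5% with PSMB8, and HLA-B shares 17.8% with an opposite-strand gene. HLA-DRB1, CD74, B2M and HLA-E share none. HLA genes differ between people at many bases, and the alleles of this line were not analysed here, so HLA levels rest on how well its alleles align to the reference.

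The genes most like HLA-DRB1 in log2 CPM over the 6 libraries, among 11726 genes with a mean of at least 5 CPM, were TNFRSF9 (Pearson r = 0.999), H2AZ1 (0.997) and RPL39P3 (0.997). For CD74 they were EPCAM (0.999), NQO1 (0.997) and KRT19 (0.996). EPCAM, an epithelial adhesion gene, was at 9.28 ± 0.44 CPM in the GPT1 libraries and 24.9 ± 1.15 CPM in the control libraries. These coefficients describe points that fall into 2 separate groups, so they measure mostly the step between the groups.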

How the data were processed

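The authors deposited 1 table of whole-number read counts, with a row per Ensembl gene and a column for each of the 6 libraries. HISAT2 2.0 and GRCh38 are named in, and taken per, the submitters' processing notes. How reads were assigned to genes (tool, annotation release, strand) was not stated in the sources used here. Current symbols matched 60463 of 60664 identifiers. Gene positions, exon lengths and overlaps are those of GENCODE 29 on GRCh38, and promoter windows those of RefSeq on GRCh38.p14.

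The test was edgeR 4.0.16 under R 4.3.3. Its filterByExpr function kept 17638 genes, TMM factors scaled the libraries, and glmQLFit and glmQLFTest compared the groups (two-sided, Benjamini-Hochberg over all tested genes, threshold 0.05). All 9 members exceeded the filter's level of 0.321 CPM in all 6 libraries, so none passed through 1 group alone. SEs were derived from the fold change and its F statistic. CPM values use TMM-scaled library sizes, list sums use total counts, and levels compared between genes are CPM per kilobase of annotated exon. Ratios of counts per kilobase, with nothing added to the counts, were tested with an exact permutation test (SciPy 1.17.1). A ratio of TMM-scaled CPM with 0.5 added to each count was an alternative, without a test. Replicate pairs differed by a chi-square per degree of freedom of 9.98 to 30.8, far above sampling noise, so each library counted as 1 sample. The gene test was tested on simulated data.

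Alternatives were other scaling factors and filters, DESeq2 1.42.0, limma voom (limma 3.58.1), the replicate number as a block, an offset for transcript length and GC content (mgcv 1.9.3, 98.9% of tested genes with both values), and each library left out. The text names the members, GPT, genes of the fixed lists and, for HLA-DRB1 and CD74, the 3 genes of the most similar pattern. HLA-F, HLA-G, TAPBP, CALR, PDIA3, ERAP1, ERAP2, PSME1, RFX5, RFXAP, RFXANK, CTSS, the class II genes and cell type markers that did not pass, ULBP3, MICA, MICB, PSMB8-AS1 and the genes at or near 0 were named after their values were seen. Some genes that this rule covers are not reported here. Members and lists were chosen with earlier results of these data known.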

Additional observations from a re-analysis of the deposited data

How the results depend on the processing

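The 9 members kept their direction under every alternative that gave a value. CD74 was not tested under a mean of at least 1 CPM. Of 143 values of the members, 136 kept their side of the threshold, 2 (TAP1) lost it and 5 (HLA-B, HLA-E and B2M) gained it with the length and GC offset, with or without the block. With that offset 8 members passed, 5 of them lower (HLA-B and HLA-E added), and 3488 of all genes were higher and 2608 lower, beside 1858 and 2572 without it; with the replicate block and the offset 2954 were higher. The offset ended the call of CREB1 and, with the block, that of HFE; DESeq2 ended those of HFE, GBP3, SP110 and LUM. The cause was not tested. Leaving out single libraries gave 4 or 5 called members (1 or 2 higher, 3 lower) and 1443 to 4907 called genes (613 to 1970 higher, 830 to 2937 lower), the lowest without GPT1 replicate 3, GPT1 replicate 1 (1586) and control replicate 1 (2565). The PSMB10 to PSMB7 difference ranged from -0.31 to 0.20, and that of HLA-C to B2M from -0.14 to 0.025, each with sign changes (PSMB10 at 0.049, 0.067, 0.20 and 0.044 without GPT1 replicates 1 and 3 and control replicates 1 and 2). The other 4 ratios kept their direction. With single libraries left out, NLRC5 ranged from -0.028 (without GPT1 replicate 3) to 0.21 and HLA-DRA from -0.29 to 0.31 (without control replicate 2). The replicate number as a block left 5 members called and 3886 of all genes (4430 without it), and ended the calls of PSME3, NFKB1 and SP110; numbers did not pair the libraries (correlations of deviations 0.141, -0.282 and -0.0838), and no library matched its own number best. Depth limits PSMB8, PSMB9, CD74, HLA-DRA and CIITA, each at or under 107 counts in every library.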

Other observations

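Class I-like molecules, only some of which signal to natural killer or unconventional T cells, were looked up as a further list of 14 genes, of which 12 were tested. ULBP2 and ULBP1, ligands of the activating receptor NKG2D, fell by 0.47 and 0.48 on the log2 scale, to 24.4 ± 2.26 and 12.9 ± 1.66 CPM in the GPT1 libraries, against 33.7 ± 1.85 and 17.97 ± 1.73 CPM in the control libraries (edgeR adjusted p = 0.0152 and 0.0274). The NKG2D ligands MICA (-0.01 ± 0.12), MICB (0.18 ± 0.13) and ULBP3 (-0.18 ± 0.15) did not pass. MR1, which presents vitamin metabolites to mucosal T cells, stood at 48.99 ± 1.66 CPM in the GPT1 libraries and 37.7 ± 1.38 CPM in the control libraries (0.38 ± 0.09, adjusted p = 0.0165). PROCR, the protein C receptor, fell (-0.41 ± 0.11), as did HFE (-1.51 ± 0.42) and AZGP1 (-1.94 ± 0.46), of which AZGP1 had 2 to 7 counts in the GPT1 libraries and 12 to 27 in the control libraries. In all 5 were lower, 1 higher and 6 not past the threshold, beside 25.1% of all tested genes past it. DESeq2 ended the call of HFE (adjusted p = 0.0798), and with the length and GC offset MR1 was at 0.61. Single libraries left out ended each of these 6 calls, with adjusted p from 0.0630 for ULBP2 to 0.115 for ULBP1 at the highest.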
